A study of Mus musculus with 18 samples.

Results

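The genes described here are 32 named genes, Atf4 itself and others listed as targets of the transcription factor it encodes, out of 19630 genes in the count table. They were taken by name and comprise 8 regulators of the integrated stress response, 3 effectors outside amino acid metabolism, 12 enzymes of amino acid and one-carbon synthesis and 9 amino acid transporters. All 32 passed the filter on low counts. RNA sequencing of mouse cells gave 18 libraries in 6 groups of 3. Per the labels, ES cells were cultured on p53-defective feeders and on control feeders in separate groups, called co-cultures here. How these cells were collected, and whether any feeders were taken off first, is not given in the sources used here. In another group ES cells were given the integrin α5β1 inhibitor ATN161 instead of a feeder layer, and in a further group the control feeders under the ES cells had been removed. The last groups were the p53-defective feeders and the control feeders alone. A feeder layer is a bed of fibroblasts that supplies ES cells with matrix and growth factors, and the feeders here are labelled as embryonic fibroblasts. The labels do not say how p53 was made defective, which ES cell line was used, or whether the 3 libraries of a group came from separate cultures. The p-values therefore measure the spread between these libraries, which may be technical. The feeder label cannot be told apart from the embryo, day or batch each feeder stock came from.

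ATF4 is the main output of the integrated stress response. Kinases that sense amino acid shortage, stress of the endoplasmic reticulum, haem deficiency or double-stranded RNA phosphorylate the initiation factor eIF2, which slows translation of most mRNAs while that of Atf4 increases through upstream open reading frames. The level of Atf4 RNA is therefore only one layer of its control, and ATF4 protein was not measured here. ATF4 pairs with C/EBP family proteins on composite C/EBP-ATF elements and switches on genes that make, import and charge amino acids. In fibroblasts the serine, glycine and proline made by these enzymes are used in quantity for collagen, and fast-dividing ES cells draw on one-carbon units from serine, glycine and threonine.

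Library totals lay between 15122721 and 19833404 counts. Levels compared between groups are CPM, counts divided by library size after TMM scaling, which sets the bulk of genes level between libraries. Trp53, the gene of the label, was present in every library, at 326, 317 and 244 CPM in p53-defective feeders against 123, 123.5 and 111.5 CPM in control feeders. In co-culture the order was the other way, with 158, 160.2 and 140.5 CPM on p53-defective feeders against 289, 300 and 291 CPM on control feeders. RNA level does not check the label, because the kind of defect is not given, and the groups are named by their labels throughout. The cell type markers were measured beside the stress genes. The summed level of 12 ES cell markers was 357 to 492 CPM in ES cells on p53-defective feeders, against 3869 to 4011 CPM on control feeders. It was 6374 to 6597 CPM with ATN161, 5075 to 5199 CPM after feeder removal, 148 to 171 CPM in p53-defective feeders and 129 to 164 CPM in control feeders. Of these markers, Klf4 averaged 113 CPM in p53-defective and 143 CPM in control feeders and Tfcp2l1 49.2 and 0.479 CPM, while Pou5f1 was listed at 0 in both. The 14 fibroblast markers summed to 6434 to 9559 CPM in p53-defective feeders against 34650 to 41680 CPM in control feeders, and the 7 mesothelial markers to 1214 to 1786 CPM against 49.3 to 55.8 CPM. The feeder stocks therefore differed in cell type markers as well as in their p53 label. In bulk RNA, fewer cells of a type and less RNA per cell cannot be told apart.

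The DNA letters that ATF4 and C/EBP proteins share were searched for in the promoters, since the genes were listed for being ATF4 targets. The motif TGATGNAA, a short form of the composite element, was sought on both strands between 250 bases before and 50 bases after each annotated start in RefSeq (GRCm38.p6). Of 28 members with a promoter in that table, 8 held it (28.6%), against 4.51% of 27025 genes. The elements are shown with 11 bases on each side, in the direction of transcription, with the matching letters in capitals. TTNCATCA is the same element read on the other strand.
Chac1 chr2:119351038-119351067 forward strand: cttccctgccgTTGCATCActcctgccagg
Trib3 chr2:152344028-152344057 reverse strand: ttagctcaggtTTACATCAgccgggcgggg
Slc7a11 chr3:50443642-50443690 reverse strand: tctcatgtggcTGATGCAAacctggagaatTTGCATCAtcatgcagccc
Asns chr6:7693214-7693243 reverse strand: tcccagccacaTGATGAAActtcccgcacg
Nupr1 chr7:126625562-126625591 reverse strand: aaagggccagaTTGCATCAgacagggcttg
Slc1a4 chr11:20332699-20332728 reverse strand: tgcctcctgcgTTGCATCAtctccagcctg
Pycr1 chr11:120643833-120643862 reverse strand: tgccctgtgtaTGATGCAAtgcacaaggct
Vldlr chr19:27216809-27216838 forward strand: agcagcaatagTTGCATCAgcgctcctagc
A match describes letters and does not show that ATF4 binds there. Slc7a11, the light chain of the cystine-glutamate exchanger, was the 1 member with 2 matches, whose first bases lie 66 and 47 bases before the start. In Trib3, a pseudokinase that restrains ATF4, the match begins 14 bases after the start. The motif was not in the windows of the other 20 matched members, and Slc7a3, Slc7a5, Slc1a5 and Cth had no window. All 8 genes with the motif rose in p53-defective feeders, as did 27 of all 32 members and 35.9% of all genes. In co-culture 6 were called higher on p53-defective feeders, against 18 of all 32 members and 36.6% of all genes, with Asns not called and Slc1a4 called lower, a direction that a scaling on ES-specific genes turned.

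Levels of different genes were ordered by TPM, a relative abundance that corrects for transcript length. Atf4 ranked first of the 32 in p53-defective feeders, at 1233 ± 152 TPM (SD, n = 3), where Nupr1 followed at 766 TPM. In control feeders Ddit3 (610 ± 122 TPM) and Atf4 (550 TPM) led and did not separate beyond their spread. The leading gene of ES cells on p53-defective feeders was Phgdh, the first enzyme of serine synthesis, at 343 ± 12 TPM, which Nupr1 at 313.5 ± 21.8 TPM overlapped. With ATN161, Asns led at 405 ± 12 TPM, followed by Slc3a2 at 240 TPM. After feeder removal Asns (297 ± 17 TPM), Atf4 (290 ± 15 TPM) and Slc3a2 (281.5 ± 18.4 TPM) lay within each other's spread, and on control feeders Slc3a2 (333 ± 10 TPM) and Asns (325 ± 10 TPM) did. Cbs, the first enzyme of transsulfuration, was lowest in control feeders (0.59 TPM), p53-defective feeders (1.94 TPM) and ES cells on p53-defective feeders (0.733 TPM). In ATN161 cultures and after removal the lowest was Vldlr, at 1.43 and 1.80 TPM.

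**Figure D1:**
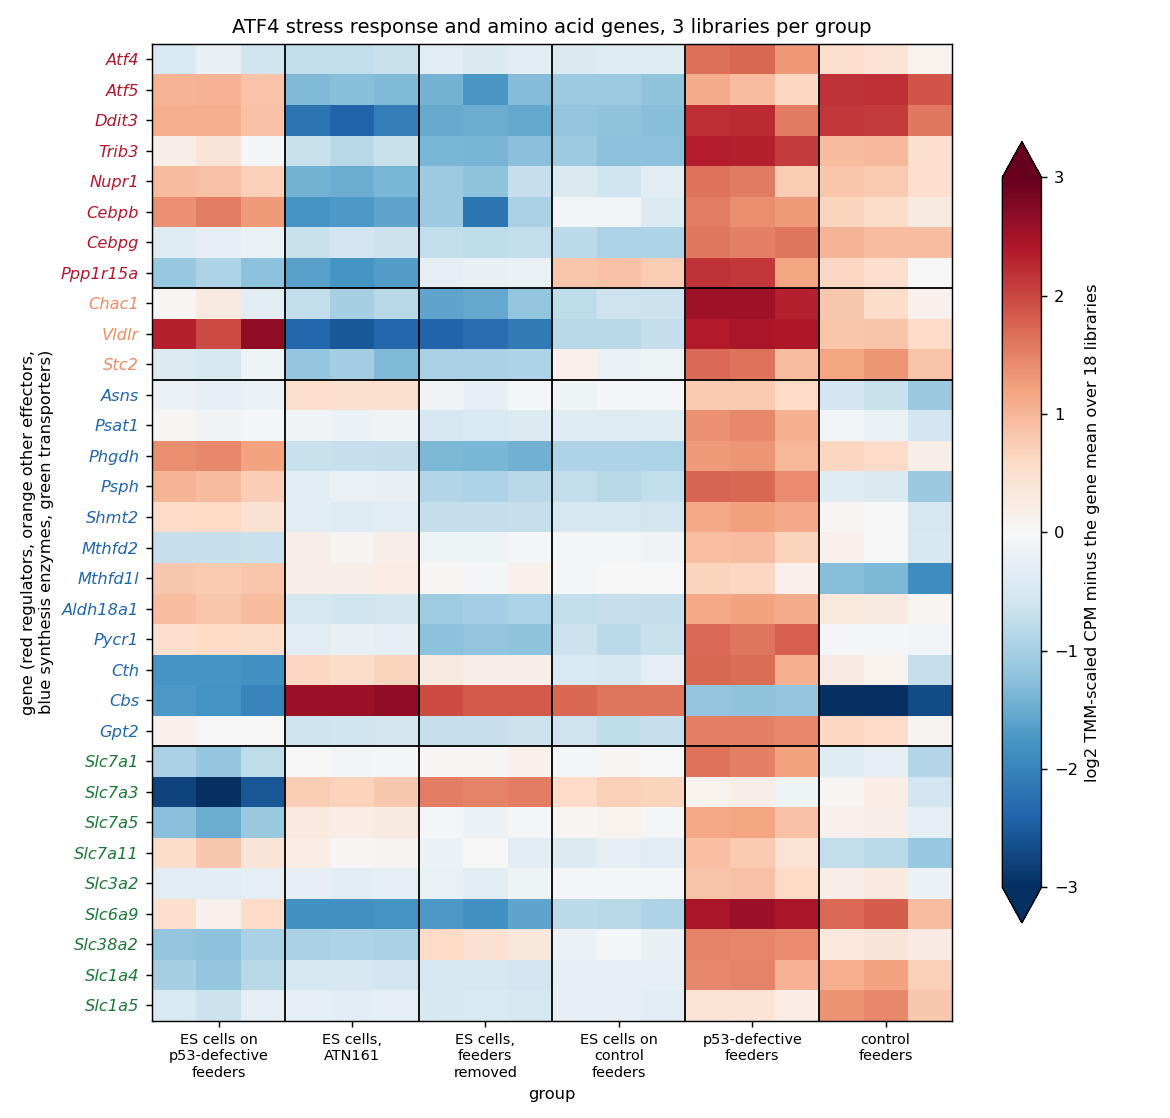
Each row is one of the 32 genes and each column one of the 18 libraries; the colour is the log2 level (TMM-scaled CPM) relative to that gene's mean over all libraries. Most rows are highest in the p53-defective feeder columns, while Cbs is highest in the ES cultures other than the one on p53-defective feeders.

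The first comparison asked how the stress genes differ between p53-defective and control feeders grown alone. They were higher as a group in the p53-defective feeders: 27 of 32 members rose and 2 fell, where 74.3% of all 15389 tested genes changed, 35.9% upward and 38.4% downward. The median member difference was 1.10 on the log2 scale, against -0.01 over all genes. All 12 synthesis enzymes rose, as did 7 of 9 transporters, 6 of 8 regulators and 2 of 3 effectors, and 18 members rose at least 2-fold. For 27 members the libraries of the groups did not overlap, as for 74% of all tested genes. In the same feeders 13 of 14 fibroblast markers were lower, 5 of 7 mesothelial markers higher and 6 of 6 macrophage markers lower; their part in the result was not tested.

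Among the regulators, Atf4 (chromosome 15, 80255184 to 80257545, GRCm38) stood at 1020, 1066 and 801 CPM in p53-defective feeders, against 465, 430 and 346 CPM in control feeders. Every library of the p53-defective feeders lay above every control library. The difference was 1.22 ± 0.11 on the log2 scale (SE; adjusted p = 7.51e-10; edgeR quasi-likelihood test with Benjamini-Hochberg adjustment over all genes, which gives every adjusted p here unless another test is named). Trib3 read 390, 382.5 and 324 CPM against 146, 150 and 108 CPM in control feeders, a rise of 1.44 ± 0.11 (adjusted p = 5.76e-11). Ppp1r15a, which encodes the GADD34 subunit that directs a phosphatase to eIF2, had 356, 347.5 and 182 CPM against 122, 114 and 78.9 CPM in control feeders. Its groups were apart although the third library in each was the lowest, and the rise was 1.49 ± 0.19 (adjusted p = 2.35e-06). Ddit3, which encodes the pro-apoptotic factor CHOP, overlapped between the feeders, with 273, 279 and 173 CPM against 254, 253 and 177 CPM. Its difference of 0.08 (95% interval -0.20 to 0.37) did not pass the test (adjusted p = 0.612). Atf5, a related leucine-zipper factor, went the other way, at 139, 122 and 99.4 CPM against 290, 294 and 241 CPM in control feeders, a difference of -1.19 ± 0.11 (adjusted p = 8.57e-10). Nupr1, Cebpb and Cebpg were higher by 0.64, 0.90 and 0.61.

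Of the effectors, Chac1, which breaks down glutathione, had 175, 175 and 151 CPM in p53-defective feeders against 52.96, 43.7 and 33.1 CPM in control feeders. The groups were far apart, by 1.95 ± 0.14 (adjusted p = 4.98e-11). Vldlr, the very low density lipoprotein receptor, read 233, 242 and 233 CPM against 78.7, 80.7 and 66.5 CPM, a rise of 1.65 ± 0.12 (adjusted p = 1.76e-11). Stc2, a secreted glycoprotein, overlapped between the groups and was not called (0.32; 95% interval 0.03 to 0.62, not adjusted for the number of genes; adjusted p = 0.0584).

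All 12 synthesis enzymes were among the members without overlap, against 74% of all genes, and the 3 enzymes that make serine were among them. Psat1, its middle enzyme, had 843, 876 and 676 CPM in p53-defective feeders against 305, 284.5 and 216.5 CPM in control feeders, a rise of 1.57 ± 0.10 (adjusted p = 3.11e-12). Phgdh read 513, 532 and 422.5 CPM against 332.5, 317 and 241 CPM, a smaller rise of 0.72 ± 0.10 (adjusted p = 6.46e-07). Psph, which completes serine, differed most of the 32, at 267, 264 and 211.5 CPM against 62.1, 58.7 and 37.0 CPM (2.24 ± 0.13; adjusted p = 1.38e-12). That value rests on transcript models that RefSeq predicts but has not curated: curated transcripts held 10.2% of its counts, and over those alone the difference was 0.36 (adjusted p = 0.372). Asns, the asparagine synthetase, had 616, 620.5 and 530 CPM against 241, 226 and 166 CPM in control feeders, higher by 1.48 ± 0.10 (adjusted p = 6.67e-12). Pycr1, the last step of proline synthesis, read 105, 98.9 and 113 CPM against 31.2, 30.9 and 30.6 CPM. Its 3 control libraries were nearly level and its rise of 1.77 ± 0.07 had the smallest p of the members (adjusted p = 3.59e-16). Mthfd1l, which releases formate from mitochondria, rose by 1.96 ± 0.12 (adjusted p = 2.12e-12), with means of 104 CPM in p53-defective and 26.9 CPM in control feeders. Shmt2, which turns serine into glycine in mitochondria, averaged 436 CPM against 176.5 CPM, and Mthfd2, Aldh18a1 and Gpt2 rose by 0.92 to 1.04. In transsulfuration Cth had 117.5, 113 and 73.9 CPM against 42.2, 38.2 and 22.1 CPM (1.57 ± 0.18; adjusted p = 1.53e-07). Cbs remained low in both, at 2.48, 2.42 and 2.45 CPM against 0.566, 0.578 and 0.869 CPM, a rise of 1.86 ± 0.19 (adjusted p = 1.02e-08) that was 0.89 on the log2(TPM + 1) scale.

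Among the transporters, Slc7a1, a carrier of arginine and lysine, had 544, 503 and 403 CPM in p53-defective feeders against 134, 144 and 94.98 CPM in control feeders. The rise was 1.96 ± 0.13 (adjusted p = 3.23e-12). Slc7a11 had 201, 183.5 and 144 CPM against 64.0, 61.2 and 48.4 CPM, a rise of 1.60 ± 0.12 (adjusted p = 8.04e-11). Slc38a2, a carrier of small neutral amino acids, read 1045, 1030 and 987 CPM against 460, 484 and 443 CPM, higher by 1.14 ± 0.08 (adjusted p = 9.08e-12). The leucine carrier Slc7a5 and its partner chain Slc3a2 rose by 1.06 and 0.67, and the glycine carrier Slc6a9 by 0.95. Slc1a5, the glutamine exchanger, was lower, at 117.5, 117 and 102 CPM against 222, 239.5 and 153 CPM (-0.87 ± 0.11; adjusted p = 4.15e-07). Its relative Slc1a4 was higher by 0.31 (adjusted p = 0.0128) with overlapping groups. Without control feeder library 3 the Slc1a4 difference was 0.18 (adjusted p = 0.122), without library 2 it was 0.48, and it was not called by limma on TPM (0.27; adjusted p = 0.0786) or in a fit of the feeder libraries alone (adjusted p = 0.0895). Slc7a3, a relative of Slc7a1, did not pass the test (0.12; 95% interval -0.16 to 0.40; adjusted p = 0.458). The third library was the lowest for most members in both feeder groups, for 28 of 32 in p53-defective and 30 of 32 in control feeders.

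**Figure D2:**
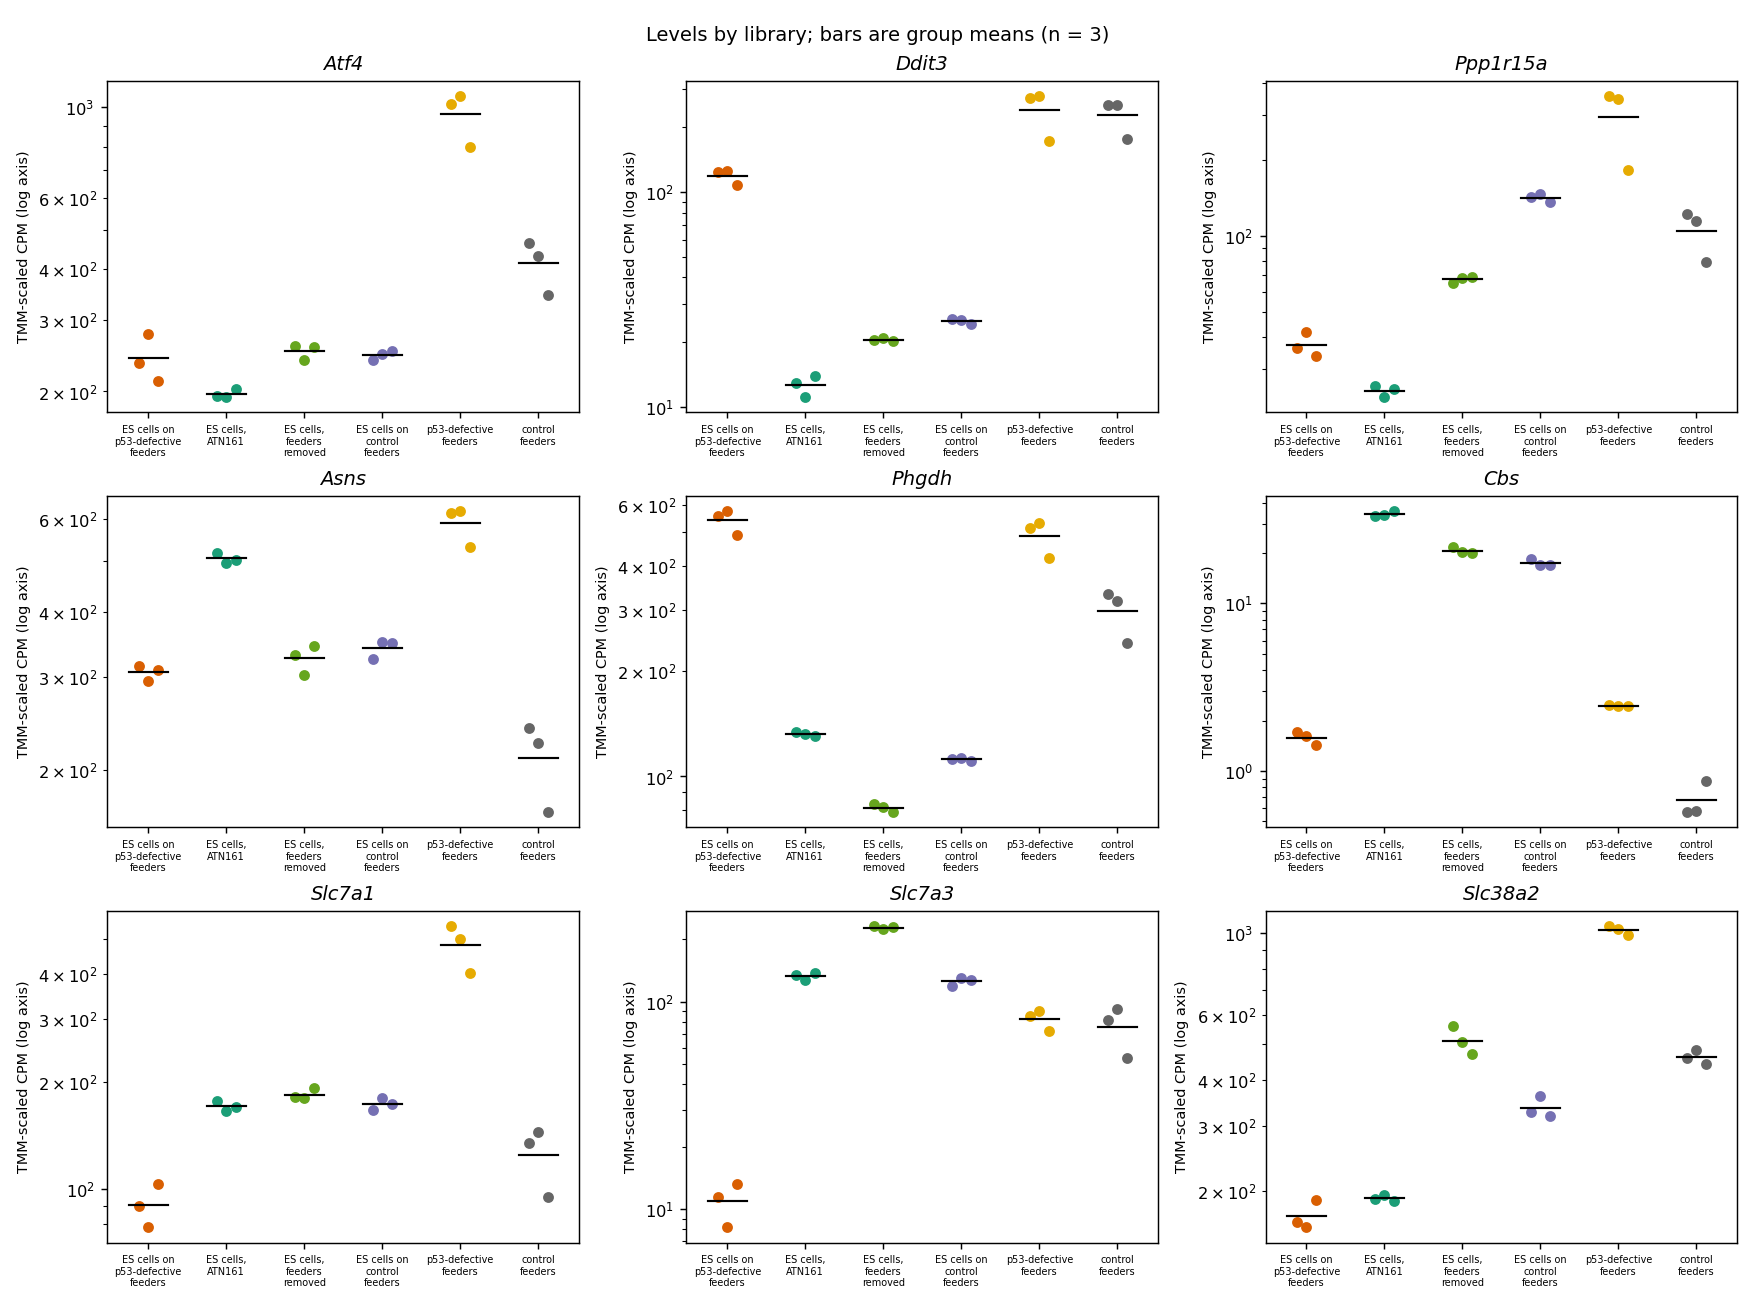
Level in each library (TMM-scaled CPM, log axis) of 9 members; points are replicates 1 to 3 from left to right and bars are group means. Atf4, Asns and Slc7a1 are highest in p53-defective feeders, and Slc7a3 and Cbs are at 8.18 to 13.2 CPM and 1.43 to 1.70 CPM in ES cells on p53-defective feeders, below every other ES culture.

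The second comparison set ES cells on p53-defective feeders against ES cells on control feeders. Here the 32 genes did not move one way: 18 rose and 10 fell under the TMM scaling, but 30 rose and none fell when libraries were scaled on ES-specific genes. Under TMM 83.4% of all tested genes changed, 36.6% upward and 46.7% downward. Regulators and effectors were mostly higher (6 of 8 and 2 of 3), and so were 8 of 12 synthesis enzymes, while 6 of 9 transporters were lower under TMM. The median member difference was 0.66, against -0.18 over all genes. All 12 ES cell markers were lower in the same libraries and 10 of 14 fibroblast and 7 of 7 mesothelial markers were higher; their part in the result was not tested. The fold changes below are per total RNA of each library, in which the share of each cell kind is not known. Scaling on 432 ES-specific genes moved the median over all tested genes to 3.20 and that of the members to 4.04. Of the 10 that fell, 8 were turned to a rise by that scaling, and Slc7a3 and Cbs were no longer called. On the log2(TPM + 1) scale with limma the median over all genes was -0.56, with 12 members higher and 15 lower.

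Ddit3 stood at 124, 125 and 107 CPM on p53-defective feeders against 25.7, 25.4 and 24.2 CPM on control feeders. The groups were far apart, by 2.24 ± 0.16 (adjusted p = 5.72e-11). Atf5 had 131, 135 and 117 CPM against 30.5, 30.5 and 28.2 CPM, higher by 2.1 ± 0.11 (adjusted p = 9.35e-14; 1.4 on the TPM scale). Trib3 read 87.2, 99.9 and 73.5 CPM against 35.5, 32.1 and 32.2 CPM, a rise of 1.38 ± 0.12 (adjusted p = 2.07e-10; 0.69 on the TPM scale). Atf4 itself overlapped between the co-cultures in CPM, at 235.5, 276 and 213 CPM against 239, 247 and 251 CPM. Its difference under TMM was -0.03 (95% interval -0.24 to 0.19; adjusted p = 0.826). In TPM it was lower without overlap, at 178, 191 and 179 TPM on p53-defective feeders against 294, 301 and 301 TPM on control feeders. Cebpb, a C/EBP partner of ATF4, had 124, 137 and 115 CPM against 44.8, 44.7 and 36.0 CPM (1.58 ± 0.19; adjusted p = 4.58e-07; 0.91 on the TPM scale). Ppp1r15a was the 1 regulator that fell, to 36.2, 42.0 and 33.7 CPM on p53-defective feeders, against 143, 146.5 and 136 CPM on control feeders. Its difference of -1.93 ± 0.20 (adjusted p = 1.40e-07) became 1.46 under the ES-specific scaling. Among the effectors Vldlr rose most of all members, to 223, 172 and 280 CPM against 25, 25.01 and 27.1 CPM on control feeders (3.13 ± 0.13; adjusted p = 5.94e-16).

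The synthesis enzymes did not move together, although none of the 12 overlapped between the co-cultures, where 84.4% of all genes did not. Phgdh had 557, 574 and 492 CPM on p53-defective feeders against 112.5, 113 and 111 CPM on control feeders, a rise of 2.27 ± 0.10 (adjusted p = 3.37e-15). Aldh18a1, which starts proline synthesis from glutamate, had 361, 337 and 365 CPM against 114, 118 and 116 CPM, higher by 1.61 ± 0.07 (adjusted p = 1.82e-15; 0.93 on the TPM scale). For both genes the groups lay far apart. Psph rose by 1.68 ± 0.13 (adjusted p = 1.00e-10; 1.03 on the TPM scale), but by 0.24 over curated transcripts alone (adjusted p = 0.536). The calls of Chac1, Gpt2 and Mthfd1l ended on the TPM scale (0.01, 0.04 and 0.13), as did that of Slc7a11 (0.25; adjusted p = 0.052), which was -1.04 over curated transcripts, while Cebpg and Psat1 turned to -0.04 and -0.33. Asns was not called, at 315, 295.5 and 310 CPM against 325, 350 and 348 CPM (-0.15; 95% interval -0.34 to 0.04; adjusted p = 0.154). In TPM it averaged 185 ± 23 on p53-defective feeders, against 325 ± 10 on control feeders (SD). Both transsulfuration genes were lower under TMM. Cbs fell to 1.70, 1.62 and 1.43 CPM, against 18.4, 17.0 and 17.0 CPM on control feeders. This difference, -3.46 ± 0.12 (adjusted p = 5.37e-17), was -0.08 under the ES-specific scaling (adjusted p = 0.636). Cth fell to 10.4, 10.4 and 10.2 CPM, against 26.1, 25.3 and 28.9 CPM (-1.37 ± 0.20; adjusted p = 5.00e-06), but was 2.01 under the ES-specific scaling. Mthfd2, a mitochondrial folate enzyme, differed by -0.62, or by -1.27 on the TPM scale, and was 2.76 under the ES-specific scaling.

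Slc7a3 showed the deepest fall of the members under TMM, to 11.5, 8.18 and 13.2 CPM on p53-defective feeders, against 118.5, 130 and 126.5 CPM on control feeders. The difference was -3.51 ± 0.17 (adjusted p = 6.90e-14), but -0.12 under the ES-specific scaling (adjusted p = 0.566). Slc7a5 fell to 146, 122 and 160 CPM, against 357, 371.5 and 338 CPM (-1.32 ± 0.11; adjusted p = 2.19e-10; 2.08 under the ES-specific scaling). Slc38a2 fell to 164, 159 and 189 CPM, against 326.5, 363 and 319 CPM (-0.98 ± 0.08; adjusted p = 1.14e-10; -1.60 on the TPM scale; -1.48 over curated transcripts; 2.41 under the ES-specific scaling). No library of these 3 carriers on p53-defective feeders reached a library on control feeders. Slc7a1 differed by -0.94 ± 0.12 and Slc1a4 by -0.71, against 2.46 and 2.68 under the ES-specific scaling; on the TPM scale they were -1.54 and -1.29. Slc3a2, called at -0.27 (adjusted p = 0.0130), was not called without any one of the control co-culture libraries (-0.16, -0.16 and -0.17 without libraries 1, 2 and 3) or without library 3 on p53-defective feeders (-0.17). It was also not called over curated transcripts (-0.24), but was called at -0.92 on the TPM scale, and was 3.12 under the ES-specific scaling. Each of the 8 values that turned positive lay below the median of 3.20 that this scaling gave all tested genes. The glycine carrier Slc6a9 was higher on p53-defective feeders by 1.26 (0.55 on the TPM scale), and Slc1a5 was not called (-0.17). In TPM Slc1a5 averaged 26.3 ± 5.9 on p53-defective feeders, against 46.4 ± 2.1 on control feeders (SD).

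A direct test compared the effect of the feeder label in co-culture with its effect in the feeders alone. Under TMM the effects differed for 28 of 32 members, 8 with a more positive and 20 with a more negative difference in co-culture, where 73.6% of all genes differed, 38.8% and 34.8% in each direction. These comparisons share no library. Cbs differed most, at -5.32 ± 0.23 (adjusted p = 3.01e-15), being higher in p53-defective than control feeders and lower in the co-culture on them. Slc7a3 (-3.63 ± 0.22; adjusted p = 5.66e-12), Ppp1r15a (-3.41 ± 0.28; adjusted p = 7.03e-09) and Slc7a1 (-2.89 ± 0.18; adjusted p = 1.66e-12) followed the same direction, as did Cth at -2.94. Atf4 differed by -1.24 ± 0.15 (adjusted p = 1.40e-07), higher in p53-defective feeders alone and without a called difference in co-culture. Atf5 ran opposite, at 3.29 ± 0.16 (adjusted p = 1.76e-14), lower in p53-defective feeders alone and higher in the co-culture on them. Ddit3 differed by 2.16 ± 0.21 (adjusted p = 1.40e-08) and Phgdh by 1.55 ± 0.14 (adjusted p = 8.99e-10; 0.91 on the TPM scale). Trib3, Cebpg, Shmt2 and Slc6a9 were not called, with intervals of -0.37 to 0.26, -0.18 to 0.19, -0.49 to 0.03 and -0.12 to 0.74. The ES-specific scaling turned 17 of the 20 more negative members to more positive ones, Atf4 to 1.74, Slc7a1 to 0.10 and Cth to 0.05 among them, with a median over all genes of 3.06. It left Cbs at -2.35, Slc7a3 at -0.63 and Ppp1r15a, no longer called, at -0.43 (adjusted p = 0.204), and it moved Atf5 to 6.27, Ddit3 to 5.14 and Phgdh to 4.55. Atf4 was -1.88 on the TPM scale with limma, where 4 members were more positive and 23 more negative.

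**Figure D3:**
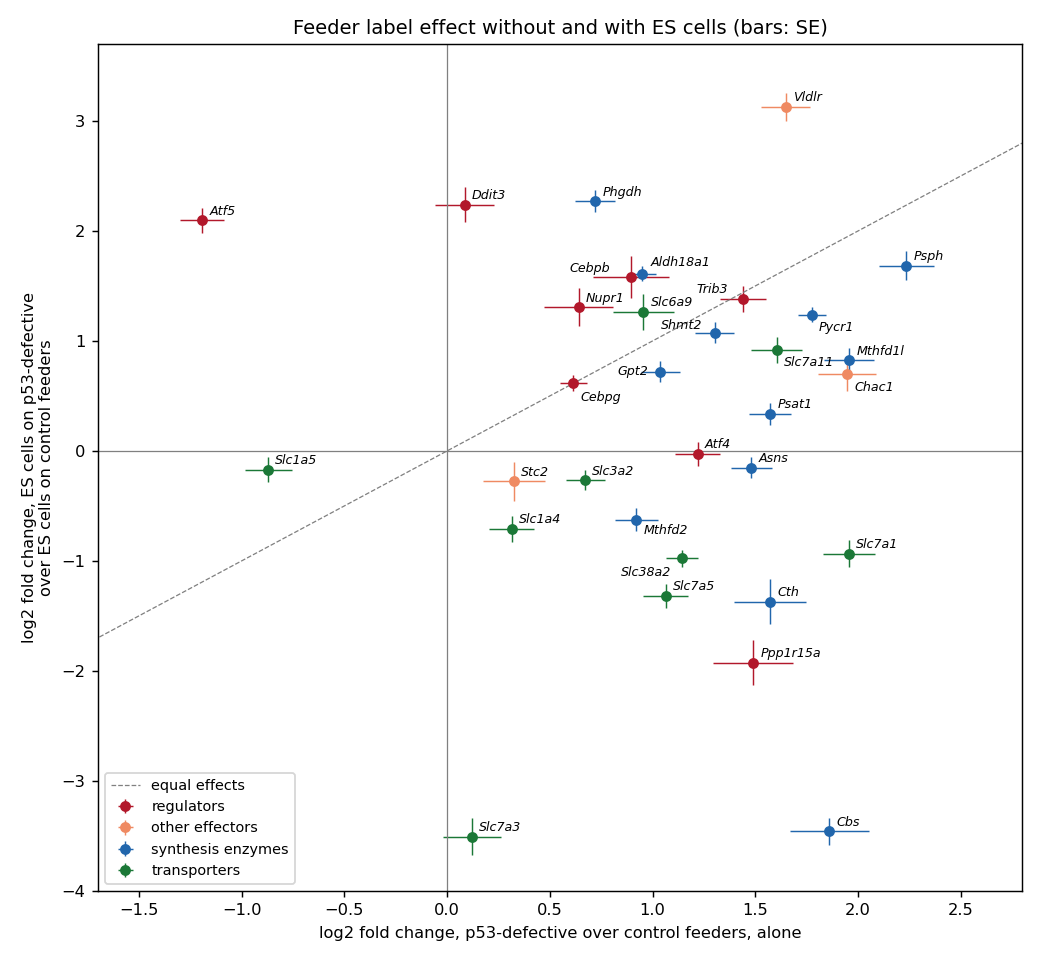
Each point is a member, with the log2 difference between p53-defective and control feeders alone on the x axis and that between the co-cultures on the y axis; bars are standard errors and the dashed line marks equal differences. Under this TMM scaling Cbs, Slc7a3, Ppp1r15a, Slc7a1 and Cth lie far below the line (Slc7a1 and Cth at 0.10 and 0.05 above it under the ES-specific scaling), and Atf5 and Ddit3 lie above it.

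The p53-defective co-culture was also set against the p53-defective feeders alone and the ES cells after feeder removal. Neither matches one cell kind of the co-culture by its markers. All 14 fibroblast markers were higher in the co-culture than in the feeders alone, with sums of 23480 to 29580 CPM against 6434 to 9559 CPM. Of 7 mesothelial markers 5 were higher and 1 lower, with sums of 1799 to 1875 CPM against 1214 to 1786 CPM. After feeder removal fibroblast markers still summed to 4341 to 4751 CPM, and their part in the result was not tested. Against its feeders, 26 members were lower and 1 higher, where 79.7% of all genes changed, 46.7% upward and 33% downward. By limma on the TPM scale all 32 members were lower, with a median of -1.96, against -0.3 over all genes. Against the ES cells after feeder removal, 19 members were higher and 9 lower, where 85.9% of all genes changed, 38.6% upward and 47.2% downward; by limma on the TPM scale 13 were higher and 13 lower. Lower than both cultures were 9 members, where 21.1% of all genes were: Mthfd2, Slc7a1, Slc7a3, Slc7a5, Slc38a2, Slc1a4, Ppp1r15a, Cth and Cbs. Of the 9 transporters, 5 are in this group. Slc7a1 averaged 90.5 CPM in the co-culture, against 483 CPM in its feeders (-2.42 ± 0.13; adjusted p = 1.61e-13) and 184 CPM in the ES cells (-1.02 ± 0.12; -1.55 on the TPM scale). Slc7a3 averaged 10.96 CPM, against 82.3 CPM in its feeders and 227 CPM in the ES cells (-2.91 ± 0.17 and -4.37 ± 0.17). Slc38a2 averaged 171 CPM, against 1021 CPM in its feeders and 512 CPM in the ES cells, and Cth 10.3 CPM against 101.5 and 41.2 CPM. For Cbs the margin against the feeders was narrow, 1.58 against 2.45 CPM (-0.63), and the call ended without co-culture library 3 (-0.44; adjusted p = 0.0715). The Slc1a4 difference from the ES cells, -0.45, was -0.28 without removal library 1 (adjusted p = 0.0571), -0.30 without library 2 and -0.97 on the TPM scale. Against ATN161 cultures, 20 members were higher and 8 lower, where 85.4% of all genes changed, 38.1% upward and 47.3% downward. With these in place of the removal cultures, 8 members were lower than both, where 19.2% of all genes were: Asns joined, and Slc38a2 and Ppp1r15a left. Above both was 1 member, where 23% of all genes were.

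Only Mthfd1l was called higher than both, where 25% of all genes were, at a mean of 130 CPM in the co-culture, against 104 CPM in its feeders and 76.7 CPM in the ES cells. Its difference from the feeders of 0.32 (adjusted p = 0.0148) was 0.17 without feeder library 3 (adjusted p = 0.106), 0.53 and 0.50 without libraries 1 and 2, 0.21 in a fit of these groups alone and -0.50 on the TPM scale. On that scale 13 members were below both cultures and none above. The ES-specific scaling was not run for these comparisons. Atf4 averaged 241.5 CPM in the co-culture, close to the ES cells at 251 CPM and far below its feeders at 962 CPM (-1.99 ± 0.11; adjusted p = 2.81e-13). In TPM Atf4 was lower than in the ES cells, at 182.5 ± 7.35 in the co-culture against 290 ± 15 after feeder removal (SD). Atf5, Phgdh, Slc7a11, Vldlr and Cebpb were not called between the co-culture and its feeders under TMM. By limma on the TPM scale they were called lower in the co-culture, as all 32 members were.

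**Figure D4:**
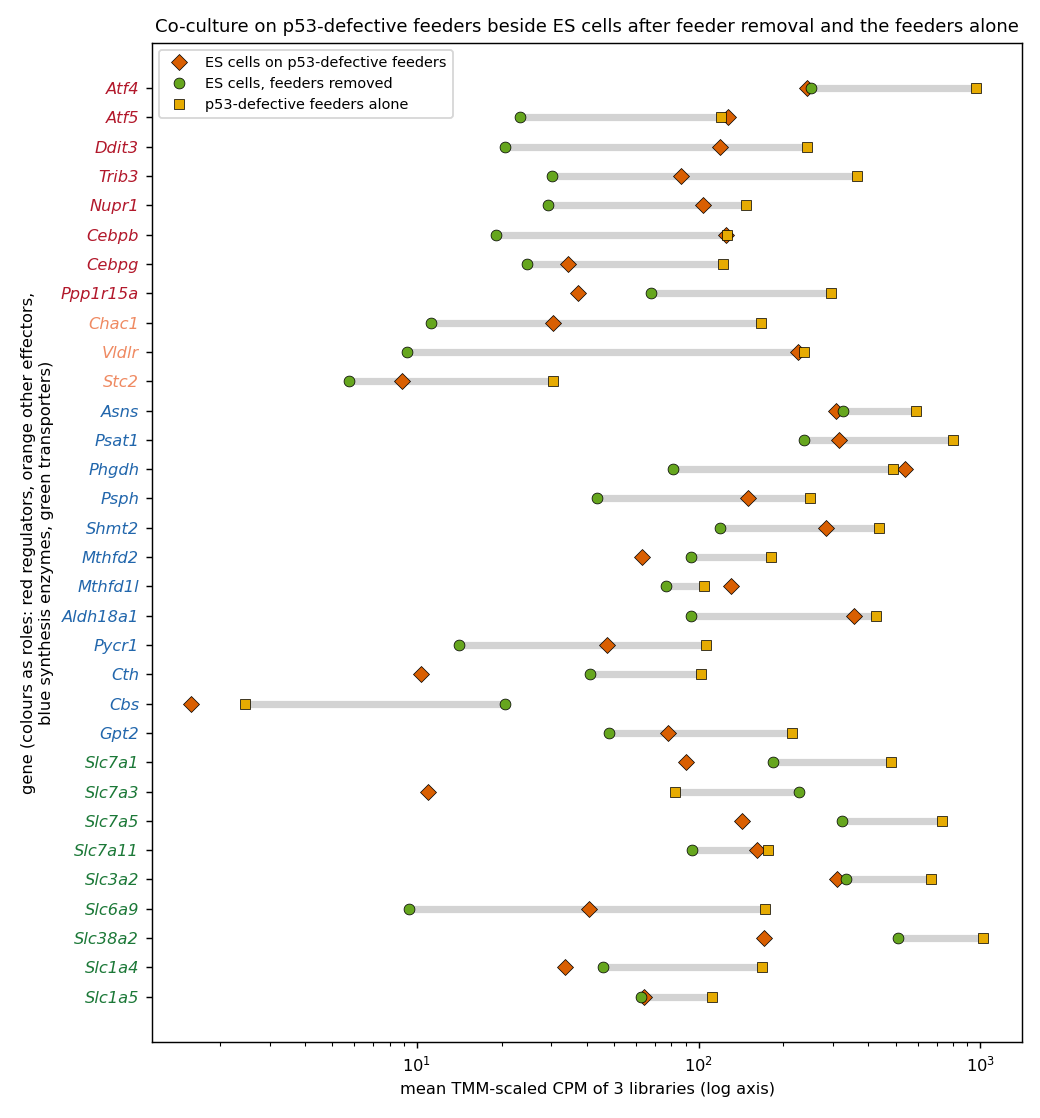
Mean level (TMM-scaled CPM, log axis) of each member in the co-culture on p53-defective feeders, in ES cells after feeder removal and in p53-defective feeders alone; the grey band joins the levels of the last pair. The co-culture point lies left of the band for Slc7a3, Cth, Slc7a1 and Slc38a2, among others. It lies right of the band for Mthfd1l, Phgdh and Atf5, of which Phgdh and Atf5 were not called against the feeders.

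Between the ES cultures without p53-defective feeders fewer members were called. Removing the control feeders changed 15 of 32 members, 4 upward and 11 downward, where 52% of all genes changed, 25.5% and 26.5% in each direction. Fibroblast markers summed to 4341 to 4751 CPM after removal, against 6788 to 7161 CPM on control feeders, and their part in the result was not tested. Atf4 was not among the called genes, at 258.5, 238 and 257 CPM after removal against 239, 247 and 251 CPM (0.03; 95% interval -0.18 to 0.24). Ppp1r15a fell to 65.2, 68.5 and 69.3 CPM after removal, against 143, 146.5 and 136 CPM on feeders, with no overlap (-1.07 ± 0.20; adjusted p = 0.000243). Vldlr fell to 8.45, 9.13 and 10.2 CPM, against 25, 25.01 and 27.1 CPM (-1.47 ± 0.14; adjusted p = 2.93e-08). Cebpb also fell (a difference of -1.13 ± 0.20), and the lower values of Stc2, Slc6a9 and Chac1 differed by -0.90, -0.86 and -0.74. Slc38a2 was higher after removal, at 560, 506 and 469 CPM against 326.5, 363 and 319 CPM, by 0.61 ± 0.08 (adjusted p = 1.39e-06). Slc7a3 rose to 230, 223 and 227.5 CPM, against 118.5, 130 and 126.5 CPM (0.86 ± 0.14; adjusted p = 3.35e-05), and Cth rose by 0.62 ± 0.18 (adjusted p = 0.00697). Cbs was called at 0.24 (adjusted p = 0.0231), a call that ended when any 1 of the 6 libraries was left out (0.15 to 0.23). Atf5 (-0.36) was not called without removal library 2 (-0.29), nor Nupr1 (-0.52) without removal library 1 or 2 (-0.51 and -0.46).

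ATN161 cultures were set against ES cells after feeder removal. In them 12 members rose and 5 fell, where 55.4% of all genes changed, 28.6% upward and 26.8% downward. By limma on the TPM scale the split was 8 higher and 6 lower, with a member median of -0.02 in place of 0.17. Of the 12 that rose 9 were synthesis enzymes, of which none fell. Asns had 517, 496 and 502 CPM with ATN161 against 331, 303 and 344.5 CPM after removal. The lowest ATN161 library was above the highest removal library, and the difference was 0.63 ± 0.10 (adjusted p = 1.44e-05). Pycr1 read 25.4, 27.7 and 27.0 CPM against 13.8, 14.3 and 14.1 CPM (0.93 ± 0.08; adjusted p = 1.47e-09). Phgdh read 134, 133 and 130.5 CPM against 83.2, 81.8 and 79.0 CPM (0.70 ± 0.10; adjusted p = 4.85e-06), and Cbs 33.5, 33.6 and 35.5 CPM against 21.7, 20.2 and 19.9 CPM (0.73 ± 0.08; adjusted p = 1.98e-07). These 3 genes also had no overlap between the groups, as was so for 26 of all 32 members in this comparison. The share over all genes was not counted here. Psph was higher by 0.63, but by 0.23 over curated transcripts alone (adjusted p = 0.626). Trib3 rose by 0.61 ± 0.12 (adjusted p = 0.000173) and Chac1 by 0.57 (0.37 on the TPM scale). The calls of Mthfd2 (0.27), Psat1 (0.33) and Slc7a5 (0.36) each ended with a library left out: Mthfd2 at 0.22 to 0.28 without any one of 5 of the 6 libraries, Psat1 at 0.28 without removal library 1 and Slc7a5 at 0.29 without removal library 2. On the TPM scale these 3 were 0.09, 0.15 and 0.18 and not called, nor was Shmt2 (0.35, against 0.16 on that scale).

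Of 8 regulators, 1 was higher and 3 were lower with ATN161 than after removal. Atf4 was lower with ATN161, at 195, 194 and 203 CPM against 258.5, 238 and 257 CPM after removal (-0.35 ± 0.11; adjusted p = 0.00920). Ddit3 fell to 12.9, 11.1 and 13.9 CPM with ATN161, against 20.4, 21.0 and 20.3 CPM (-0.70 ± 0.18; adjusted p = 0.00233). Ppp1r15a fell to 25.6, 23.2 and 24.9 CPM, against 65.2, 68.5 and 69.3 CPM (-1.46 ± 0.21; adjusted p = 2.01e-05). In these 3 regulators every ATN161 library was below every removal library, a separation that 26 of all 32 members showed in either direction. Slc38a2 fell to 190, 195 and 188 CPM, against 560, 506 and 469 CPM (-1.42 ± 0.08; adjusted p = 2.65e-12), and Slc7a3 to 134.5, 127 and 137.5 CPM, against 230, 223 and 227.5 CPM (-0.77 ± 0.14; adjusted p = 0.000103). Fibroblast markers summed to 1064 to 1190 CPM with ATN161, against 4341 to 4751 CPM after removal, and ES cell markers to 6374 to 6597 CPM against 5075 to 5199 CPM; their part in the result was not tested.

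Against ES cells on control feeders, ATN161 cultures had 10 members higher and 10 lower, where 61.6% of all genes changed, 33.6% upward and 28% downward; this comparison shares its ATN161 libraries with the previous one and its control co-culture libraries with the feeder removal comparison. By limma on the TPM scale the split was 3 higher and 13 lower, and over curated transcripts 5 and 12. Again 7 of 12 synthesis enzymes were higher and none lower, with 5 of 8 regulators lower. All 14 fibroblast markers were lower, with sums of 1064 to 1190 CPM with ATN161 against 6788 to 7161 CPM on control feeders, and 11 of 12 ES cell markers were higher; their part in the result was not tested. The calls of Pycr1 (0.41) and Psph (0.52) ended on the TPM scale, at 0.15 and 0.29. Cth averaged 54.4 CPM with ATN161, against 26.8 CPM on control feeders (1.02 ± 0.18; adjusted p = 6.73e-05). Cbs averaged 34.2 CPM against 17.5 CPM (0.97 ± 0.08; adjusted p = 1.48e-09), and Asns 505 CPM against 341 CPM (0.57 ± 0.10; adjusted p = 3.55e-05; 0.32 on the TPM scale). Ppp1r15a averaged 24.6 CPM with ATN161, against 142 CPM on control feeders, the widest gap of the members in this comparison (-2.53 ± 0.21; adjusted p = 2.31e-08). Vldlr, Cebpb, Stc2 and Ddit3 were lower, with differences of -1.63, -1.50, -1.11 and -0.99. Atf4 was also lower, with a difference of -0.32 (adjusted p = 0.0143; -0.56 on the TPM scale). For Psat1 and Phgdh, at 0.25 and 0.24, the call ended when any 1 of the 6 libraries was left out (0.17 to 0.27 and 0.16 to 0.25) and on the TPM scale (0.00 and -0.01). Slc3a2 (-0.23) was not called without any one of the ATN161 libraries (-0.25 to -0.21) and was -0.47 on the TPM scale. Cebpg (0.26) was not called without control co-culture library 2 or 3 (0.15 and 0.17), and Slc7a11 (0.44) not without library 1 (0.32); on the TPM scale they were 0.02 and 0.20. Over curated transcripts Slc7a11 was -2.91 and Psph was -0.33.

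**Figure D5:**
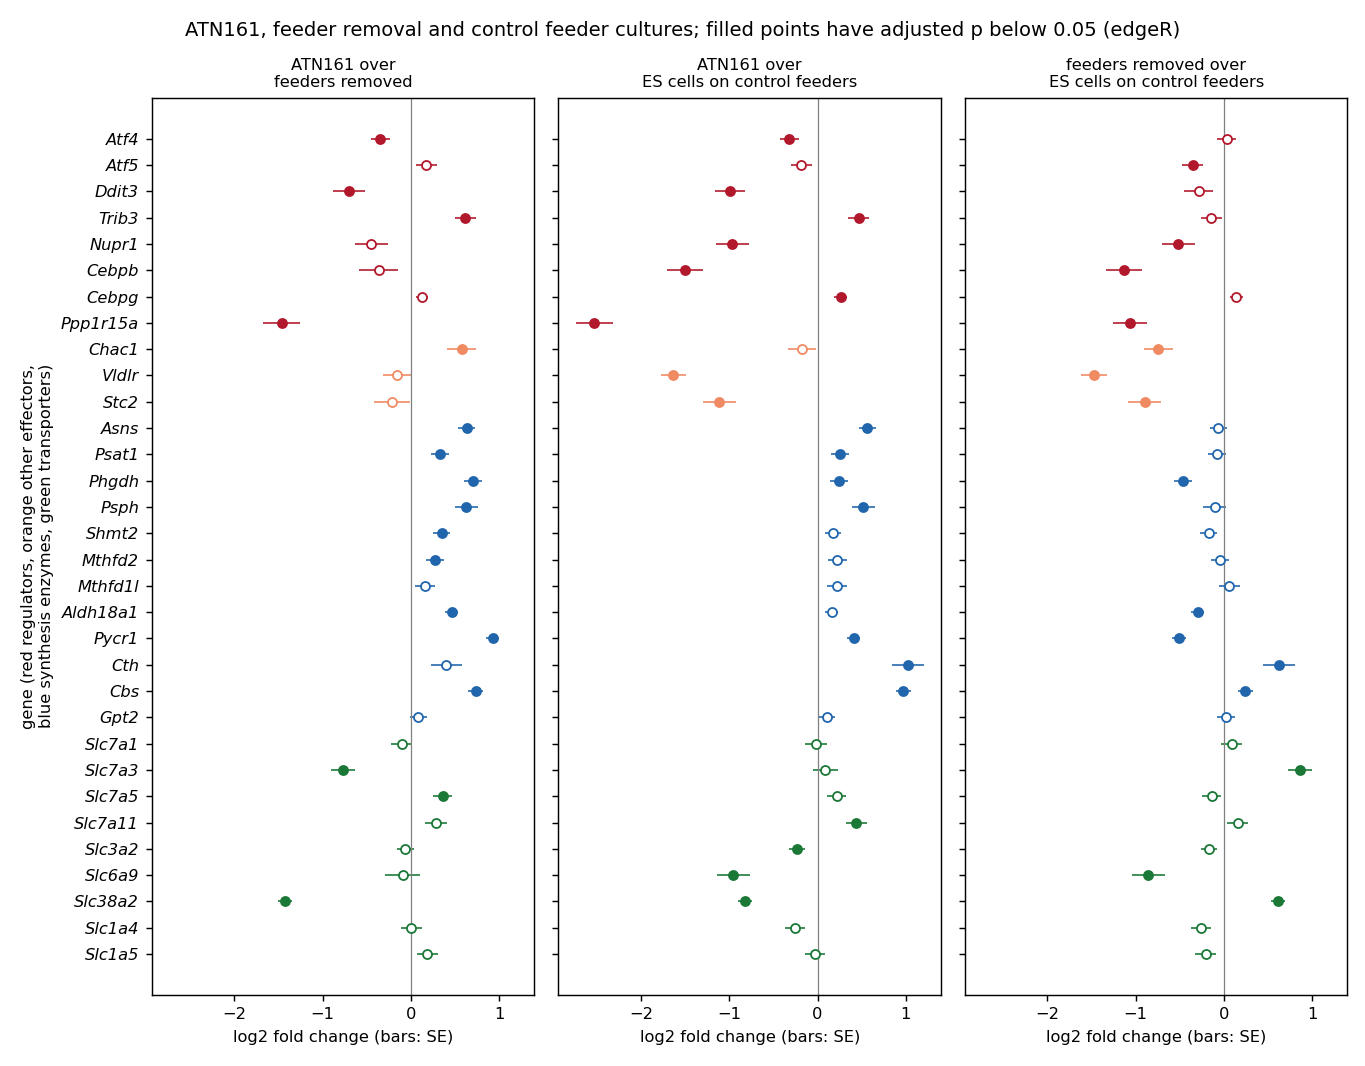
Log2 differences of the 32 members, with standard errors, for ATN161 over feeder removal, ATN161 over control feeders and feeder removal over control feeders; filled points passed the test at an adjusted p under 0.05. Synthesis enzymes lie right of 0 or near it in the first panel, while Ppp1r15a, Slc38a2 and Slc7a3 lie left of it.

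ES cells after feeder removal had 6 members higher and 20 lower than control feeders alone, where 85.9% of all genes changed, 45.1% upward and 40.8% downward. Fibroblast markers still summed to 4341 to 4751 CPM after removal, against 34650 to 41680 CPM in control feeders. Macrophage markers summed to 116 to 161 CPM in control feeders, against 7.15 to 7.85 CPM after removal. The part of these markers in the result was not tested. All 8 regulators were lower in the ES cells. Atf5 averaged 23.3 CPM in them, against 275 CPM in control feeders (-3.56 ± 0.12; adjusted p = 1.05e-17), and Ddit3 20.6 CPM against 228 CPM (-3.47 ± 0.16; adjusted p = 6.82e-14). Cbs was higher in the ES cells, at 20.6 CPM against 0.671 CPM (4.93 ± 0.14; adjusted p = 4.75e-19), as were Slc7a3 (1.58 ± 0.14) and Mthfd1l (1.51 ± 0.12). The control co-culture, also compared with control feeders, had 7 members higher and 19 lower, where 84.2% of all genes changed, 44.3% upward and 39.9% downward.

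Other genes of the pathway were counted over whole lists; the genes named from each are among those with the smallest p in a comparison. The counts stand against 35.9% of all genes called higher and 38.4% called lower between feeders, and 36.6% and 46.7% between co-cultures. Of 20 aminoacyl-tRNA synthetases, the enzymes that charge tRNAs and of which many are ATF4 targets, 19 rose and none fell in p53-defective feeders, with a median of 0.76. Vars, the valyl enzyme, averaged 343 CPM in p53-defective feeders against 136 CPM in control feeders (1.34 ± 0.07; adjusted p = 1.76e-13). The synthetases were also higher with ATN161, 18 of 20 against feeder removal and 19 of 20 against control feeders, with none lower, where 28.6% and 33.6% of all genes were higher (medians 0.31 and 0.48, against 0.03 and 0.07 over all genes). Sars, the seryl enzyme, averaged 393 CPM with ATN161, against 269 CPM after removal (0.55). In co-culture on p53-defective feeders 9 rose and 5 fell, under the TMM scaling.

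Of 15 eIF2 kinases and initiation factors, 8 rose and 5 fell in p53-defective feeders. Gcn1, an activator of the amino acid sensing kinase GCN2, averaged 363 CPM there, against 118 CPM in control feeders (1.62; adjusted p = 3.10e-14). In co-culture, under TMM, 1 rose and 9 fell. Of 17 further amino acid transporters, 8 rose and 5 fell in p53-defective feeders, where Slc16a10, a carrier of aromatic amino acids, averaged 67.3 CPM against 11.8 CPM in control feeders (2.51). In co-culture, under TMM, 3 rose and 10 fell, and Slc7a7, a partner of Slc3a2, averaged 2.23 CPM on p53-defective feeders against 30.3 CPM on control feeders (-3.76; -0.38 under the ES-specific scaling). Of 18 further one-carbon genes, 10 rose and 5 fell in p53-defective feeders. Mthfd1, the cytosolic folate enzyme, averaged 123 CPM there, against 37.2 CPM in control feeders (1.72). In co-culture, under TMM, 6 rose and 12 fell, with a median of -1.08, and Gldc, of the glycine cleavage system, averaged 12.3 CPM on p53-defective feeders against 202 CPM on control feeders (-4.04; -0.65 under the ES-specific scaling).

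Of 13 further stress response targets, 7 rose and 6 fell in p53-defective feeders. Those that fell include Sesn2, an inhibitor of mTORC1 that p53 also activates, at 40.8 CPM against 102 CPM in control feeders (-1.32), and Gdf15, a secreted stress hormone that p53 also activates, at 4.92 CPM against 25.1 CPM (-2.35). In co-culture, under TMM, 7 rose and 5 fell. Sesn2 averaged 21.0 CPM on p53-defective feeders, against 202 CPM on control feeders (-3.27; adjusted p = 2.60e-18; 0.12 under the ES-specific scaling), and Gdf15 2.89 CPM against 26.6 CPM (-3.20; 0.17 under the ES-specific scaling). Fgf21, a secreted factor that ATF4 induces in liver and muscle, averaged 16.8 ± 1.6 CPM on p53-defective feeders, against 0.0486 ± 0.0491 CPM on control feeders (SD, n = 3 each). It was at 97.7 ± 4.8 CPM in p53-defective feeders and 46.0 ± 8.0 CPM in control feeders alone. With ATN161, Atf3, a stress-induced relative of Atf4, averaged 3.40 CPM, against 33.1 CPM after removal (-3.28). Removal shifted 1 of these 13 genes upward and 7 downward, where 25.5% of all genes rose and 26.5% fell. With ATN161 against removal 5 moved in each direction, where 28.6% of all genes rose and 26.8% fell.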

How the data were processed

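RNA was extracted with Trizol and libraries were made with a TruSeq mRNA kit, per the labels' protocols; whether strand was kept is not given in the sources used here, so overlapping and antisense genes may share reads. StringTie 1.3.3b, DESeq2 1.2.10, HISAT2 2.1.0 and SAMtools 1.4 are listed, with the build mm10/GRCm38, per the submitters' processing notes, which give no roles. The authors deposited estimated counts and TPM of 75416 transcripts in 18 libraries. Both were summed here per gene (19630 genes; 89.3% of count sums were whole within 0.05) and counts were rounded. Of these genes 15389 passed filterByExpr. All 18 libraries entered 1 edgeR 4.0.16 quasi-likelihood fit (R 4.3.3, TMM scaling, robust, 12 residual degrees of freedom, common biological coefficient of variation 0.0792). The fit was tried on simulated counts with few genes changed, in p53-defective feeders only. That setting cannot show how TMM scaling behaves where most genes change. Calls are at an adjusted p (Benjamini-Hochberg) under 0.05, two-sided. Intervals are 95%. Levels between groups are TMM-scaled CPM, order between genes TPM. Alternatives used DESeq2 1.42.0 and limma 3.58.1, limma also on log2(TPM + 1), an alternative chosen after seeing the data. The members and lists were chosen with earlier results of these data known, and from each other list up to 3 genes per comparison with the smallest p were eligible for naming. Totals of 15122721 to 19833404 counts limit the precision of low genes such as Cbs.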

Additional observations from a re-analysis of the deposited data

Results flagged for a closer look

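The effect of the p53 label on 28 of the 32 genes was not the same in co-culture as in feeders alone, by an interaction test in edgeR's quasi-likelihood fit that also called 73.6% of all tested genes. The values here are the log2 difference between co-cultures minus that between feeders alone. More negative in co-culture were Cbs (-5.32), Slc7a3 (-3.63), Ppp1r15a (-3.41), Cth (-2.94), Slc7a1 (-2.89), Slc7a5 (-2.38) and Slc38a2 (-2.12). Of smaller size were Asns (-1.63), Mthfd2 (-1.54), Chac1 (-1.25), Atf4 (-1.24), Psat1 (-1.23), Mthfd1l (-1.13), Slc1a4 (-1.02), Slc3a2 (-0.94), Slc7a11 (-0.69), Stc2 (-0.60), Psph (-0.55), Pycr1 (-0.53) and Gpt2 (-0.32). More positive in co-culture were Atf5 (3.29), Ddit3 (2.16), Phgdh (1.55), Vldlr (1.48), Slc1a5 (0.70), Cebpb (0.69), Nupr1 (0.67) and Aldh18a1 (0.66). Under scaling on ES-specific genes 27 members were more positive and 2 more negative, while the median over all genes moved to 3.06, above the members' median of 2.34. By limma on the TPM scale Slc1a5 (0.06), Cebpb (0.05), Nupr1 (0.08) and Aldh18a1 (0.02) were no longer called. Over curated transcripts the calls of Vldlr (0.52; adjusted p = 0.404), Psph (-0.13; adjusted p = 0.856), Gpt2 (-0.39; adjusted p = 0.132) and Cebpb (0.65; adjusted p = 0.0511) ended. Cebpb was also not called by DESeq2's Wald test (0.64; adjusted p = 0.0655). The calls of Cebpb, Gpt2, Nupr1, Psph and Stc2 ended when 1 library was left out, with Cebpb at 0.59 without control feeder library 1, Gpt2 at -0.16 without control feeder library 3, Nupr1 at 0.64 without library 2 on p53-defective feeders, Psph at -0.43 without library 3 on p53-defective feeders and Stc2 at -0.43 without p53-defective feeder library 1. Groups of 3 libraries were not examined for single outlying libraries.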

How the results depend on the processing

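No count of called members, both directions added, moved by more than 1.5 times under any alternative tried. The split by direction did move. Between co-cultures 18 higher and 10 lower became 30 and 0 under the ES-specific scaling, and 12 and 15 by limma on TPM. For the difference of effects 8 more positive and 20 more negative became 27 and 2 under the ES-specific scaling. limma-voom and the replicate block ended none of 192 member calls, DESeq2's size factors 1, DESeq2's Wald test 2, a fit of the compared groups alone 3, a filter of 5 CPM 3 and no filter 9. Curated transcripts alone ended 17 and reversed 4, and limma on deposited TPM ended 24 and reversed 6. Leaving out 1 library ended 66 of 1320 and reversed none; the counts of called members then ranged over 28 to 31 between feeders, 27 to 28 between co-cultures, 24 to 28 for the difference of effects, 12 to 14 for feeder removal, 17 to 18 and 16 to 18 for ATN161 against control feeders and against removal, 26 to 27 and 27 to 28 for the p53-defective co-culture against its feeders and the ES cells, and 9 to 12 outside both cultures.

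The main fit did not pair libraries by replicate number. In no comparison did the deviations of same-numbered libraries correlate at over 0.1 for all 3 numbers. The correlations were 0.11, 0.05 and 0.22 between feeders. Between ATN161 and removal they were 0.06, 0.06 and 0.11, and each library correlated best with its own number. Library 3 was also the lowest for 28 of 32 members in p53-defective and 30 of 32 in control feeders. Whether a number marks a shared culture or batch was not tested. With the replicate block 30 members were called between feeders, 28 between co-cultures, 15 for removal, 21 and 19 for ATN161 and 28 for the difference of effects.

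Scaling on ES-specific genes kept 28 of 56 calls and reversed 25; it holds ES-specific genes level between libraries whose ES cell markers summed to 357 to 492 CPM on p53-defective feeders, against 3869 to 4011 CPM on control feeders. Between co-cultures it gave Slc7a1 2.46, Slc3a2 3.12, Mthfd2 2.76, Ppp1r15a 1.46, Slc7a5 2.08, Slc1a4 2.68, Slc38a2 2.41, Cth 2.01, Sesn2 0.12 and Gdf15 0.17. For the difference of effects it gave Asns 1.37, Atf4 1.74, Chac1 1.74, Cth 0.05, Gpt2 2.69, Mthfd1l 1.86, Mthfd2 1.45, Psat1 1.77, Psph 2.45, Pycr1 2.45, Slc1a4 1.97, Slc38a2 0.87, Slc3a2 2.06, Slc7a11 2.29, Slc7a1 0.10, Slc7a5 0.62 and Stc2 2.38. On the TPM scale Cebpg (-0.04) and Psat1 (-0.33) reversed between co-cultures, both again between the p53-defective co-culture and ES cells (-0.10 and -0.18), Mthfd1l between that co-culture and its feeders (-0.50) and Phgdh between ATN161 and control feeders (-0.01); the cause was not tested. Over curated transcripts Psph (-0.33) and Slc7a11 (-2.91) reversed between ATN161 and control feeders, Slc7a11 between co-cultures (-1.04) and Psph between the p53-defective co-culture and its feeders (0.44), with 10.2% and 17% of the counts of Psph and Slc7a11 in those transcripts.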

Other observations

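Endoplasmic reticulum chaperones and genes of the unfolded protein response, a neighbouring stress program, were read from a list of 15. Between p53-defective and control feeders 7 rose and 7 fell, with a median of -0.07, where 35.9% of all genes rose and 38.4% fell. Ern1, the stress sensor IRE1, averaged 191 CPM in p53-defective feeders against 38.1 CPM in control feeders (2.32 ± 0.10; adjusted p = 1.56e-15, edgeR quasi-likelihood test with Benjamini-Hochberg adjustment). Between co-cultures 8 rose and 3 fell under the TMM scaling, where 36.6% of all genes rose and 46.7% fell. With ATN161 against feeder removal 2 rose and 9 fell, where 28.6% of all genes rose and 26.8% fell. In the same libraries 9 of the 12 synthesis enzymes of the ATF4 group rose under TMM. Of these enzymes, Mthfd2, Psat1 and Shmt2 were not called on the TPM scale, nor Psph over curated transcripts. Of 8 targets of NRF2, the regulator of the antioxidant response, 3 rose and 5 fell between feeders. After feeder removal none rose and 6 fell, where 25.5% of all genes rose and 26.5% fell. Between co-cultures 1 of the 8 rose and 6 fell under the TMM scaling.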
